A study of Mus musculus with 14 samples.

Results

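Corneal stromal cells grown in serum with TGF-beta1, which the labels call myofibroblasts, were compared with the same kind of cells grown in serum alone, which the labels call fibroblasts. The comparison uses 6 of the 14 arrays of the series: 3 titled Corneal Myofibroblast and 3 titled Corneal Fibroblast, paired by the replicate number in the title. Both cultures were primary cultures of stromal cells isolated from CD-1 mice, an outbred strain, at 7 to 8 weeks of age, and both were kept in DMEM with 10% fetal bovine serum. The myofibroblast culture also received TGF-beta1 at 10 ng/ml. The number of mice per culture, the passage and the time in TGF-beta1 are not given in the sources used here. The remaining arrays hold corneal stroma dissected from adult and postnatal mice and a keratocyte culture in 1% platelet-poor horse serum, also from adult CD-1 mice. The values of the keratocyte culture (3 arrays) are given beside some genes for orientation and enter no test.

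Keratocytes are the quiet resident cells of the corneal stroma, which they keep transparent through regular collagen fibrils and abundant soluble enzymes known as corneal crystallins. After a wound, or in culture with serum, they turn into dividing fibroblasts. TGF-beta1 is the best known signal that turns fibroblasts into myofibroblasts, contractile cells that close a wound, lay down matrix and can leave a scar. The ligand binds the receptors TGFBR2 and TGFBR1, the receptors phosphorylate SMAD2 and SMAD3, and these enter the nucleus with SMAD4. The related BMPs act through other SMADs and raise the Id genes, which code for inhibitors of differentiation factors.

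RNA was hybridised to Affymetrix MG_U74Av2 arrays, and the values are probe set signals on a linear scale with a lowest value of 1. The array carries 19 control probe sets against bacterial and yeast transcripts that a mouse sample does not contain unless they are added. No source used here mentions such an addition. These probe sets had a median signal of 38.7 and a 95th percentile of 131.7 over the 6 arrays, so a signal below 131.7 lies within background. Differences are given on the log2 scale of signal plus 16, myofibroblast minus fibroblast, as the mean of 3 pairs. The value after ± is limma's standard error (SE). It borrows variance across probe sets, so it can be smaller or larger than the spread of the 3 pairs alone gives. For the probe set that stands for a gene, differences are printed only where both group means exceeded background. Those of further probe sets, of lists and of the alternative settings at the end are printed regardless of background. For a gene with 1 group within background the signals and a lower bound of the fold change are given, that is the geometric mean of the brighter group over 131.7, or over the dimmer group's own signal on arrays where that was higher. A gene was called where its adjusted p was below 0.05 (limma with the replicate number as a block, Benjamini-Hochberg over 9500 probe sets), and every adjusted p below comes from that test. Precision is limited by having 3 arrays per group. The labels do not say that replicates came from separate mice or cultures, and p-values then measure the spread between these arrays only.

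Median signals ran from 102.0 to 118.0 in the myofibroblast and from 107.1 to 125.0 in the fibroblast culture, and the 3′/5′ ratio of Gapdh, a measure of RNA breakdown, from 0.756 to 0.819 and from 0.795 to 0.859. Same-numbered arrays deviated together from their group means, with correlations of 0.637, 0.702 and 0.546 over probe sets against -0.452 to -0.087 for arrays of different number. Fibroblast replicate 3 stood apart from the other 5 arrays in contractile and corneal crystallin genes, and some results that rest on it are given with and without pair 3.

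Between the cultures 519 of the 9500 probe sets tested (5.46%) changed, 168 upward (1.77%) and 351 downward (3.69%). With each array centred on its median the split was 206 upward and 241 downward, and after quantile normalization 222 and 243, so that the excess of falls depends in part on the scaling. In terms of genes, 131 of 6952 rose (1.88%) and 266 fell (3.83%), and the median difference over all genes was -0.05. In all 519 the 3 pairs had the same sign. The count rests on the pairing: without it 14 probe sets passed (0.147%), and 265, 225 and 1018 passed without pair 1, 2 and 3. In genes, 0.834%, 0.748% and 3.9% rose and 2.1%, 1.58% and 7.18% fell without pair 1, 2 and 3, the background for every count below that leaves out a pair. In 12.8% of all genes the 3 arrays of 1 culture all lay above those of the other. The 14 probe sets called without pairing were those of Cdkn2b, Csrp2, Anxa8, Rasl11b and Tfpi2, which rose, and of Adm, Mest, Ptx3, Serping1, Penk (2 probe sets), Fgf7, Apcdd1 and Glns-ps1, which fell.

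**Figure D1:**
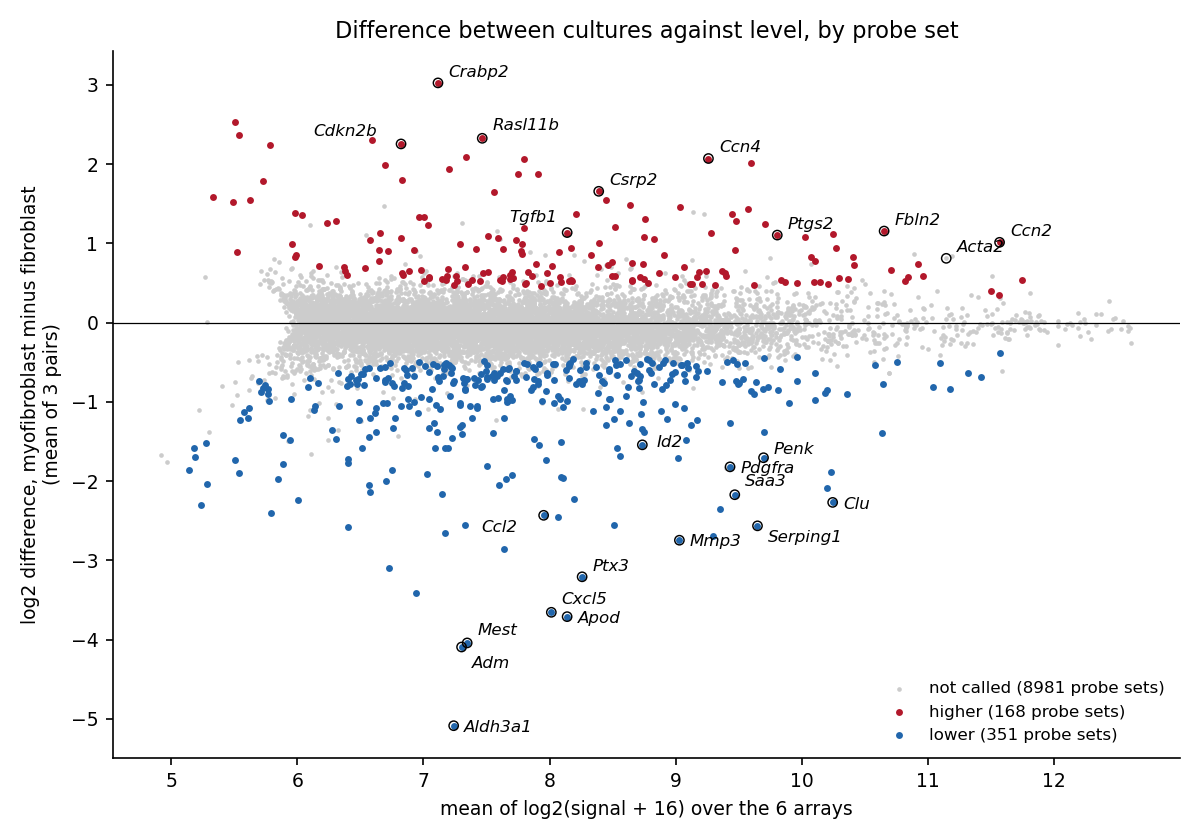
Each point is 1 of 9500 probe sets, with the mean of log2(signal + 16) over the 6 arrays on the horizontal axis and the log2 difference, myofibroblast minus fibroblast, on the vertical axis; red and blue points passed adjusted p below 0.05 upward (168) and downward (351). The falls reach further from 0 than the rises, and Acta2, circled like the other labelled genes, lies among the grey points that did not pass.

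Of the 12 largest rises, all but that of Ccn4 came from genes whose fibroblast mean was within background. Crabp2, a carrier of retinoic acid inside the cell, gave signals of 373, 381 and 386 on myofibroblast replicates 1, 2 and 3 and of 49.3, 62.4 and 6.37 on the fibroblast replicates in the same order. All myofibroblast arrays lay above all fibroblast arrays, and the rise was at least 2.88-fold (adjusted p = 0.0028). Rasl11b, a small GTPase of the RAS family, was at 429, 286 and 446 against 68.5, 45.5 and 78.7, at least 2.88-fold higher (adjusted p = 9.49e-05). Anxa8, a calcium-dependent phospholipid-binding annexin, rose from 82.3, 117 and 81.7 to 374, 443 and 513, at least 3.34-fold (adjusted p = 0.000481). Tfpi2, a secreted inhibitor of serine proteases that binds to matrix, rose from 42.3, 27.5 and 16.3 to 237, 153 and 217 (adjusted p = 0.000954). Adcy7, an adenylyl cyclase that makes cyclic AMP, was at 707, 228 and 542 against 185, 54.9 and 122.8 (adjusted p = 0.000235), and Cdo1, which oxidises cysteine, at 308, 184 and 568 against 42.1, 54.9 and 101 (adjusted p = 0.00144). In all of these genes the groups did not overlap. The phosphate importer gene Slc20a1 rose from 254, 116 and 23.5 to 523, 277 and 423, and fibroblast replicate 3 was the lowest array. C1qtnf3, a secreted adipokine-like protein, was at 115, 12.5 and 334 against 3.71, 1 and 3.96, and myofibroblast replicate 3 was the only array above background. Without pair 1 the threshold was not reached by C1qtnf3 (adjusted p = 0.107), and without pair 2 not by Slc20a1 (adjusted p = 0.0866).

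Of the 12 largest falls, all but those of Mmp3, Plpp3 and Serping1 ended with a myofibroblast mean within background. Aldh3a1, the main soluble crystallin enzyme of the mouse cornea, was at 751, 222 and 3721 in fibroblast and at 1, 1 and 44.3 in myofibroblast cultures, with the value 1 standing for the lowest signal the file holds. It fell at least 6.48-fold (adjusted p = 0.000481), although its fibroblast signals differed widely among themselves. A weaker probe set of Aldh3a1 differed by -1.76 and did not pass (adjusted p = 0.215). Adm, the precursor of the vasodilator peptide adrenomedullin, fell from 809, 407 and 778 to 36.7, 31.0 and 6.52, at least 4.82-fold (adjusted p = 0.000769). Mest, an imprinted gene of growing mesenchyme, fell from 381, 518 and 1344 to 28.1, 17.8 and 27.2, at least 4.88-fold (adjusted p = 0.000516). Adm and Mest ended within background on every myofibroblast array. Apod, a lipid-binding protein of quiescent fibroblasts, fell from 1341, 425 and 1755 to 91.1, 17.4 and 116, at least 7.6-fold (adjusted p = 1.05e-05). Adh1, an alcohol dehydrogenase that also oxidises retinol, fell from 293, 159 and 1171 to 39.8, 1 and 40.4 (adjusted p = 0.00144), and Cyp2f2, a cytochrome P450 enzyme, from 349.9, 235 and 1648 to 72.3, 42.1 and 63.1 (adjusted p = 0.00999). Plpp3, a membrane enzyme that breaks down lysophosphatidic acid, fell from 1309, 1467 and 2033 to 352, 325 and 104, a difference of -2.69 ± 0.38 (SE, n = 3 pairs; adjusted p = 0.00939). In each of these genes every fibroblast array lay above every myofibroblast array.

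**Figure D2:**
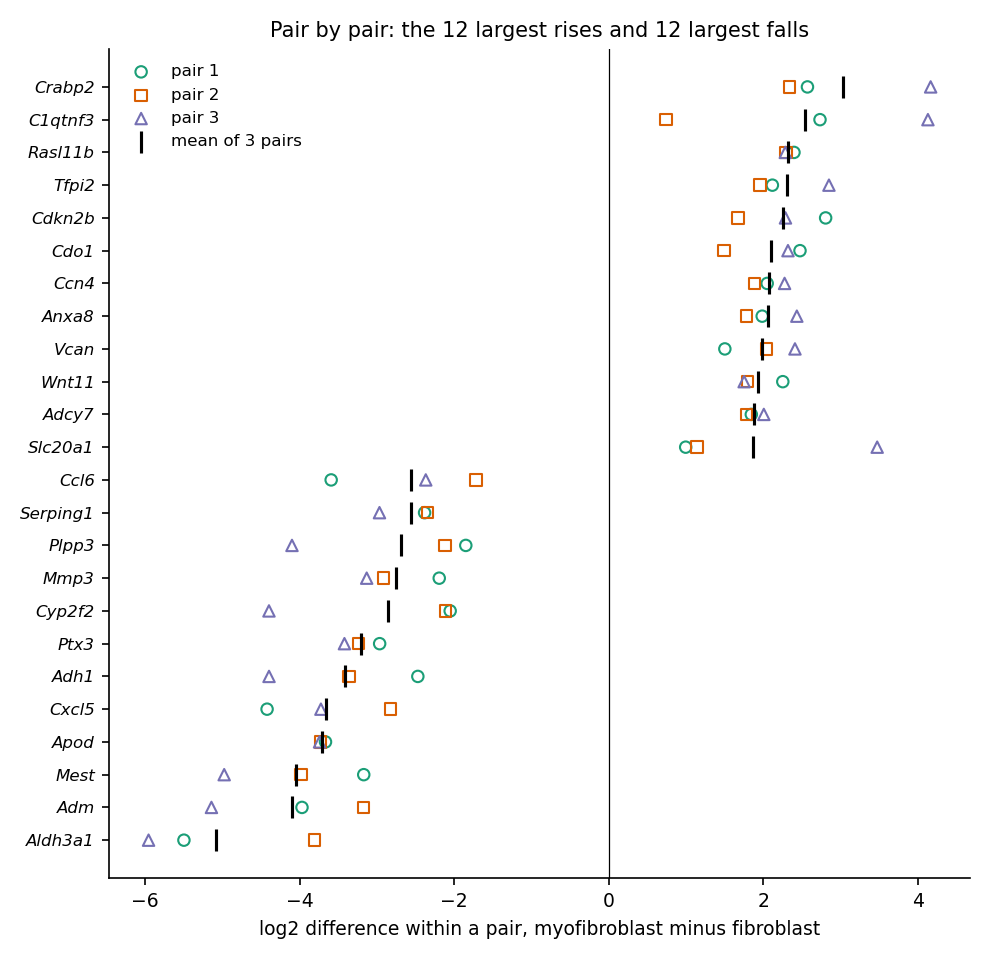
Log2 difference, myofibroblast minus fibroblast, within each of the 3 pairs (circle, square and triangle) for the 12 largest rises and the 12 largest falls that met the naming rule, with the mean as a black bar. All pairs of a gene lie on the same side of 0. Values are drawn as measured, and apart from Ccn4, Mmp3, Plpp3 and Serping1 each gene had 1 group mean within background, where the size of a difference is uncertain.

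Genes of the TGF-beta pathway were taken in the order of the signal. Tgfb1, the gene of the ligand itself, rose in the myofibroblast culture. Its signals were 511, 268 and 473 with TGF-beta1 and 237, 132 and 167 without, and the lowest of the former lay above the highest of the latter. The difference was 1.14 ± 0.13 (SE, n = 3 pairs; adjusted p = 0.00383). Tgfb2 stayed below the filter at 20.8, 22.9 and 24.5 against 64.8, 42.5 and 30.7, and Tgfb3 was at 476, 308 and 411 against 362, 338 and 217 with overlapping groups (adjusted p = 0.264). Inhba, which codes for the subunit of activin A, another ligand that signals through SMAD2 and SMAD3, rose from 160.3, 167 and 81.8 to 287, 327 and 353 (1.20 ± 0.21, adjusted p = 0.0218). The latent carriers of the ligand went opposite ways. Ltbp2 rose from 573, 653 and 244 to 815, 861 and 371 in groups that overlap, higher by 0.49 when compared within pairs (adjusted p = 0.0411), and Ltbp1 fell from 371, 135 and 244 to 151, 52.97 and 133, which also overlap (adjusted p = 0.0043). The signalling receptors Tgfbr1 and Tgfbr2 were within background in both cultures and did not pass (adjusted p = 0.227 and 0.356). The accessory receptor Tgfbr3 fell from 121, 114 and 171 to 68.5, 53.7 and 51.5 (adjusted p = 0.0154). Of 39 ligands, receptors, carriers and Smads tested, 3 rose and 3 fell, Smad6 being the third, beside 1.88% and 3.83% of all genes. Without pair 1, 2 and 3 there were 2, 1 and 6 rises and 2, 1 and 3 falls. With pair 1 left out, Ltbp2 (adjusted p = 0.188) missed the threshold, as did Inhba, Ltbp2 and Tgfbr3 (adjusted p from 0.0564 to 0.15) with pair 2 left out.

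Of 22 targets and feedback genes of the pathway 7 rose (31.8%) and 2 fell (9.09%), beside 1.88% and 3.83% of all genes. The median difference of the list was 0.40, beside -0.05 over all genes. Cdkn2b, the cell cycle inhibitor p15 and a textbook SMAD target, was within background in the fibroblast culture at 27.2, 40.4 and 41.1 and reached 286, 164 and 263 with TGF-beta1, at least 1.75-fold higher (adjusted p = 0.00144). Skil, the SMAD co-repressor SnoN, stayed below 131.7 on every array but rose in each pair, from 43.3, 24.1 and 33.3 to 107, 80.6 and 117 (adjusted p = 0.00409). Ccn2, connective tissue growth factor, was abundant in both cultures, at 3248, 2423 and 1204 in the fibroblast and 4716, 4039.9 and 4156 in the myofibroblast arrays. Its groups did not overlap and it differed by 1.01 ± 0.21 (SE, n = 3 pairs; adjusted p = 0.0395), with fibroblast replicate 3 the lowest of all. Bhlhe40, a transcriptional repressor, rose from 232, 309.9 and 88.5 to 664, 593 and 498 (1.55 ± 0.23, adjusted p = 0.0115). Sphk1, which makes sphingosine 1-phosphate, was within background in the fibroblast culture at 43.3, 41.3 and 22.7 and at 169, 81.4 and 88.3 with TGF-beta1 (adjusted p = 0.0105). Itgb5, an integrin subunit that can release the latent ligand, rose from 814, 593 and 1157 to 1544, 956 and 1954 (0.78 ± 0.10, adjusted p = 0.00623). A second probe set of Itgb5 differed by 0.11 and did not pass. Smad7, the inhibitory Smad of the TGF-beta branch, was at 420.4, 292 and 364 against 402, 197 and 225 and did not pass (adjusted p = 0.132). Smad6, the inhibitory Smad of the BMP branch, fell from 289, 202 and 348 to 182, 152 and 199.97 (-0.58, adjusted p = 0.0347), and so did Snai1, a repressor of epithelial genes, from 486, 195 and 262 to 206, 127 and 187 (-0.73, adjusted p = 0.0397). Leaving out pair 1, 2 or 3 gave 5, 5 and 9 rises and 0, 0 and 3 falls in this list. The threshold was missed without pair 1 by Sphk1, Smad6 and Snai1 (adjusted p from 0.0579 to 0.164), and without pair 2 by Ccn2, Smad6 and Snai1 (adjusted p from 0.0775 to 0.11).

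Of 4 Id genes tested 3 fell and 0 rose, beside 3.83% and 1.88% of all genes. The fourth, Id4, was lower in each pair and did not pass (adjusted p = 0.0938), and passed without pair 3. Id2 was at 1048, 467 and 732 in the fibroblast and at 397, 184 and 172 in the myofibroblast culture, with no overlap and a difference of -1.54 ± 0.15 (SE, n = 3 pairs; adjusted p = 0.0024). Id3 fell from 1239, 818 and 1168 to 653, 496 and 538 (-0.90 ± 0.11, adjusted p = 0.00556) and Id1 from 674, 483 and 479 to 411, 319 and 307 (-0.63 ± 0.10, adjusted p = 0.0166). In keratocyte culture the same genes were at 423 to 762, 830.4 to 964 and 416 to 454. Of the genes named here, Id1 (adjusted p = 0.107) did not pass without pair 1, nor did Id1 (adjusted p = 0.0936) without pair 2.

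**Figure D3:**
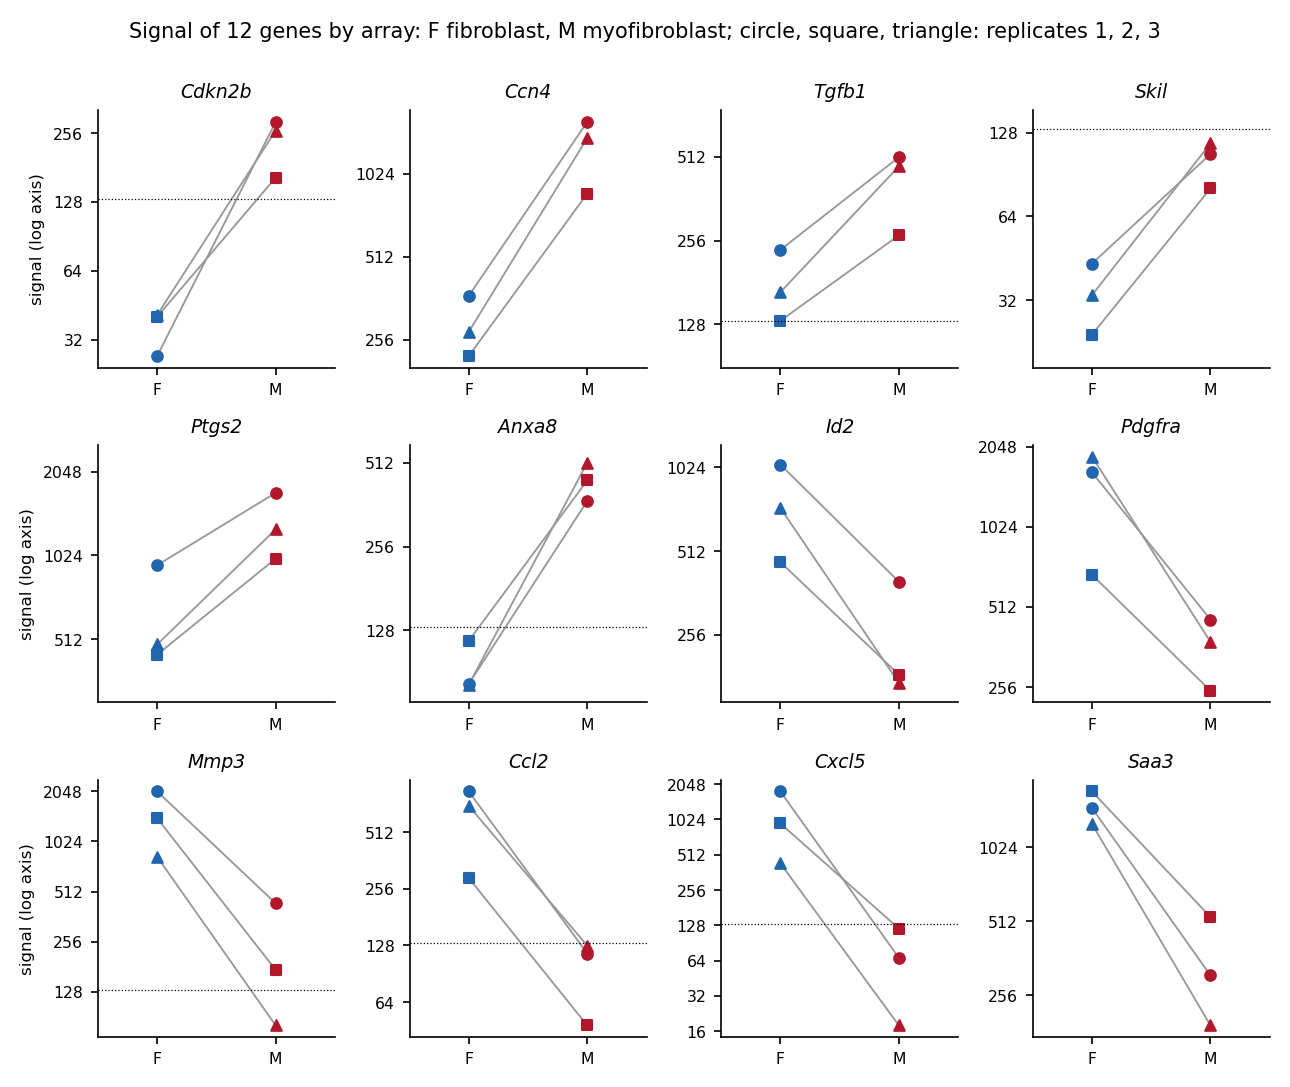
Signal of 12 genes on each array, on a log2 axis, in fibroblast (F, blue) and myofibroblast (M, red) cultures; lines join the arrays of a pair and the dotted line is 131.7, the 95th percentile of the control probe sets, drawn where the axis reaches it. The upper 6 genes from Cdkn2b to Anxa8 are higher in each pair with TGF-beta1, and the lower 6 from Id2 to Saa3 are lower in each pair.

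The contractile genes that define a myofibroblast did not separate the cultures. Acta2, alpha smooth muscle actin and the usual marker of the myofibroblast, gave 3061, 2954 and 2932 in the myofibroblast and 2544, 2954 and 638 in the fibroblast culture. Fibroblast replicates 1 and 2 were near the myofibroblast arrays and replicate 3 alone was low, so that the difference of 0.81 ± 0.36 (SE, n = 3 pairs) did not pass (adjusted p = 0.234). Pairs 1, 2 and 3 differed by 0.27, -7.8e-05 and 2.17. Tagln, the actin-binding protein transgelin, was at 3011, 2299.7 and 2371 against 2157, 2822 and 428, with the same low array (adjusted p = 0.273). Keratocyte cultures gave 3066, 3167 and 3347 for Acta2 and 2990.0, 3799 and 3793 for Tagln, as high as the cultures in serum. Tpm1, tropomyosin 1, was at 3272, 3401 and 3388 against 2710.3, 3393 and 2410.0 (adjusted p = 0.215), and Myl9, the regulatory light chain of smooth muscle myosin, at 638, 774 and 744 against 599, 949 and 360.1 (adjusted p = 0.504). Cnn1, calponin 1, was at 974, 506 and 853 against 772, 782 and 985.3 (adjusted p = 0.613) and Actn1, alpha-actinin 1, at 2142, 1796 and 2400.1 against 2106, 1831 and 1641 (adjusted p = 0.436). The groups overlapped in all 6 of these genes. Of 29 contractile and smooth muscle genes tested, 1 rose and 0 fell, beside 1.88% and 3.83% of all genes, and their median difference was 0.08. The summed signal of the 33 such genes on the array was 34556, 31439 and 30898 in the myofibroblast and 32977, 34357 and 21450.5 in the fibroblast culture, so fibroblast replicate 3 lay below the other 5 arrays. Without pair 3 the median was -0.05, 1 gene rose and 3 fell, and Myl9 and Actn1 changed sign. High Acta2 and Tagln thus marked the 3 arrays labelled myofibroblast, but 2 of the 3 arrays labelled fibroblast and all 3 labelled keratocyte held them at a similar level.

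The gene that rose was Csrp2, which codes for a LIM-domain protein of smooth muscle and of stellate cells and is named here because it was the only one of its list. Its signals were 653, 585 and 510.1 with TGF-beta1 and 182, 173 and 163 without, with little spread within a group. It differed by 1.66 ± 0.11 (SE, n = 3 pairs; adjusted p = 0.000354) and also passed without the pairing (adjusted p = 0.0165). Keratocyte cultures, at 206, 178 and 209, were near the fibroblast cultures.

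**Figure D4:**
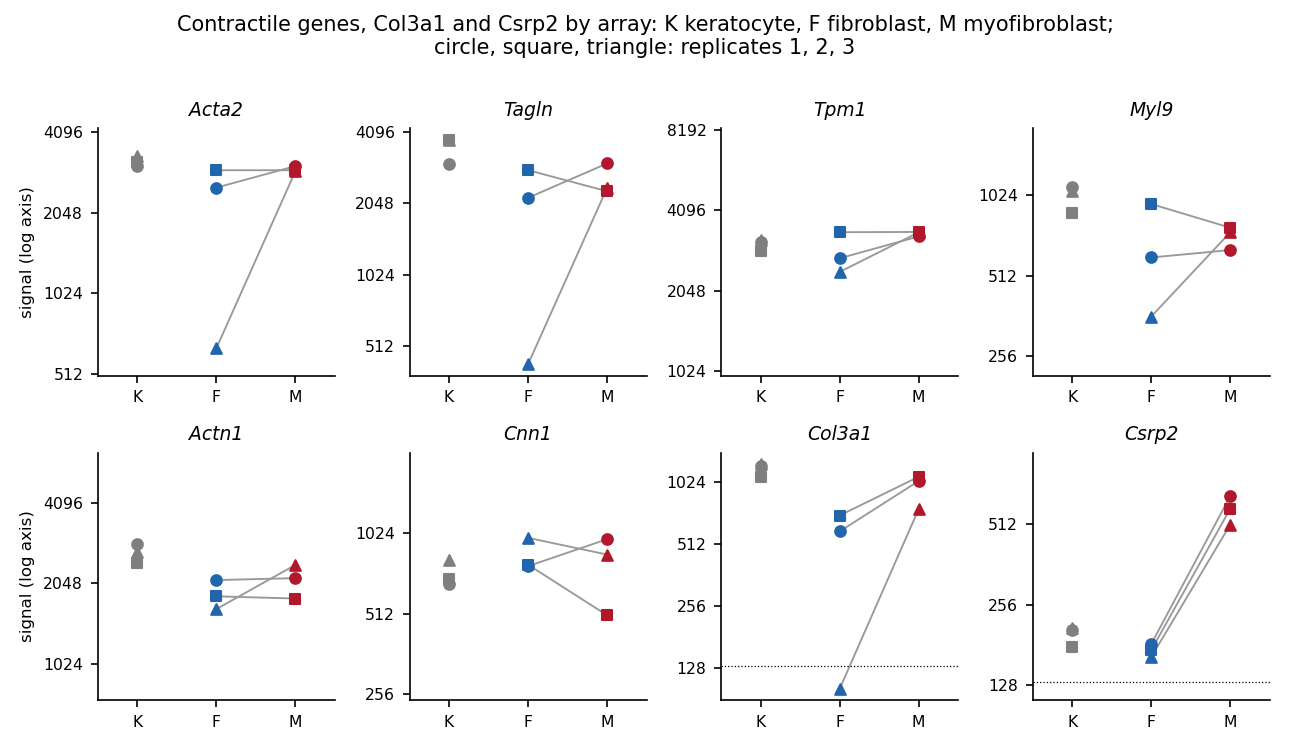
Signal of 6 contractile genes, Col3a1 and Csrp2 on each array, on a log2 axis, in keratocyte (K, grey), fibroblast (F, blue) and myofibroblast (M, red) cultures; lines join fibroblast and myofibroblast arrays of a pair, and the dotted line is 131.7. Fibroblast replicate 3 (blue triangle) is low in Acta2, Tagln, Myl9 and Col3a1, while Csrp2 is higher in all 3 myofibroblast arrays.

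The main collagens of the stroma did not pass. Col1a1 was at 6834, 5766 and 5562 with and 6745, 5392 and 6538 without TGF-beta1 (-0.04 ± 0.09, adjusted p = 0.825), a difference whose sign turned to 0.01 and 0.03 under quantile normalization and median centring. Col1a2 was at 5786, 5075 and 5164 against 5018, 4175 and 5685 (0.12 ± 0.10, adjusted p = 0.524). Fn1, fibronectin, gave 5999, 5092 and 5399 against 5252, 4648 and 5446 (adjusted p = 0.471). All 3 were among the strongest signals of both cultures. Col3a1, the collagen of healing tissue, was at 1035, 1085 and 756 against 589.6, 704 and 102 with no overlap, and its difference of 1.37 ± 0.36 missed the threshold (adjusted p = 0.0729). Without pair 3, in which the fibroblast array was lowest, the difference was 0.70 and passed, and of its 2 weaker probe sets 1 passed on all pairs (1.80, adjusted p = 0.0327) and 1 did not (1.47, adjusted p = 0.0647). Col11a1, a minor chain that seeds fibrils, rose from 239.6, 168 and 429.5 to 741, 551 and 720.4 (1.31 ± 0.18, adjusted p = 0.00884), and Col5a1, which limits fibril width, from 1299.8, 1253 and 2013 to 2151, 1935 and 2362 (0.52 ± 0.12, adjusted p = 0.0461). These were the 2 rises among 15 fibrillar and fibril-associated collagens, with 0 falls, beside 1.88% and 3.83% of all genes. Leaving out pair 1, 2 or 3 gave 1, 0 and 4 rises. Lox, the enzyme that starts collagen cross-linking, rose from 2653, 2570.2 and 2281 to 3553, 3185 and 3183 (0.40 ± 0.08, adjusted p = 0.0395). It was the 1 call among 13 genes of collagen maturation, beside 5.71% of all genes called in either direction. Without pair 1 the threshold was not reached by Col5a1 and Lox (adjusted p from 0.156 to 0.197), and without pair 2 not by Col11a1, Col5a1 and Lox (adjusted p from 0.0552 to 0.237).

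Of 10 elastic fibre genes tested 4 rose and 1 fell, beside 1.88% and 3.83% of all genes. Eln, elastin itself, differed more between replicate numbers than between cultures: it was at 452, 1555 and 34.8 in the myofibroblast and 123.2, 219 and 20.7 in the fibroblast arrays and was higher within each pair (adjusted p = 0.0413). Fbln2, a protein that binds elastin and basement membranes, went from 1257, 1758 and 537 to 3087, 3762 and 1165, also overlapping between groups and higher by 1.16 ± 0.09 within pairs (adjusted p = 0.00102). Replicate 3 was lowest in both cultures for these 2 genes. Mfap4, a microfibril protein, rose from 145, 73.9 and 79.3 to 277, 151 and 204 (adjusted p = 0.00458). The fourth rise was Ltbp2 and the fall Ltbp1, both given above. Without pair 1 or pair 2 the list held 2 rises, and Eln had adjusted p = 0.0968 and 0.124.

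Matricellular genes, whose proteins sit in matrix and signal to cells, gave 3 rises and 3 falls among 21 tested, beside 1.88% and 3.83% of all genes, and 3, 2 and 6 rises and 3, 1 and 4 falls without pair 1, 2 and 3. Ccn4, the Wnt- and TGF-beta-responsive protein WISP1, rose from 369.7, 223 and 273 to 1583, 869 and 1384 with no overlap (2.07 ± 0.12, SE, n = 3 pairs; adjusted p = 0.000195). Ccn2 and Fbln2, given above, were the other rises. Thbs2, thrombospondin 2, fell from 2514, 1822 and 3644 to 1414, 693 and 911 (-1.39 ± 0.19, adjusted p = 0.00894). Aebp1, a collagen-binding carboxypeptidase-like protein, fell from 1935, 1356 and 1473 to 1117, 753 and 704 (-0.89 ± 0.10, adjusted p = 0.00409), and Ccn5, a CCN protein without the cysteine knot, from 336, 341 and 635 to 194, 259 and 407 (-0.58 ± 0.12, adjusted p = 0.0348). Several well known scar genes of this class gave no call. Tnc was at 3007, 2251 and 1487 against 2679, 2951 and 1425, Postn at 1267, 537 and 1147 against 464, 403 and 1043 and Sparc at 3644, 3139 and 3323 against 2931, 2279 and 2999 (adjusted p = 0.829, 0.144 and 0.104). Without pair 3 Postn and Sparc passed, with differences of 0.91 and 0.39. Tgfbi, a corneal matrix protein named for its response to TGF-beta, was at 175, 113 and 62.0 against 215, 123.1 and 286 (adjusted p = 0.204). With pair 1 left out, Ccn5 (adjusted p = 0.183) missed the threshold, as did Thbs2 and Ccn5 (adjusted p from 0.0519 to 0.0843) with pair 2 left out.

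Among 19 basement membrane genes 2 laminin chains rose and 4 genes fell, beside 1.88% and 3.83% of all genes, with 0, 0 and 3 rises and 2, 1 and 5 falls without pair 1, 2 and 3. Lama2 rose from 256, 179 and 373 to 436, 387 and 501 (0.73, adjusted p = 0.0293) and Lamb1 from 364, 315 and 197 to 496, 423 and 387 (0.59, adjusted p = 0.0499). A weaker probe set of Lamb1 did not pass (adjusted p = 0.0983). Col18a1, the source of endostatin, fell from 302, 299 and 138 to 99.95, 129 and 83.7 (adjusted p = 0.0116), as did its 2 further probe sets. Nid2, nidogen 2, fell from 73.0, 97.0 and 73.8 to 24.5, 22.0 and 15.0, with both cultures within background (adjusted p = 0.00458). The remaining falls were Lamb2 (adjusted p = 0.0369) and Col15a1 (adjusted p = 0.0499). Col4a1 gave no call at 1676, 1465 and 2004 against 1453, 1153 and 946 (adjusted p = 0.107). The threshold was missed without pair 1 by Lama2, Lamb1, Lamb2 and Col15a1 (adjusted p from 0.102 to 0.264), and without pair 2 by Lama2, Lamb1, Col18a1, Lamb2 and Col15a1 (adjusted p from 0.0598 to 0.176).

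Among proteoglycans and hyaluronan genes 2 of 20 rose and 2 fell, beside 1.88% and 3.83% of all genes. Leaving out pair 1, 2 or 3 gave 2, 2 and 5 rises and 2, 1 and 2 falls there. Vcan, versican, a large proteoglycan of provisional matrix, rose from 83.1, 67.8 and 1 to 265, 329.6 and 74.4 (adjusted p = 0.00144), and Has2, which makes hyaluronan, from 64.6, 122 and 26.4 to 199.8, 226 and 68.5 (adjusted p = 0.0075). Both were lowest on replicate 3 in both cultures, and both overlapped between groups. Ogn, the keratan sulfate proteoglycan osteoglycin, fell from 1066, 486 and 2216 to 444, 233 and 752 (-1.26 ± 0.13, adjusted p = 0.0024), with the same call from its other probe set. Gpc3, a membrane heparan sulfate proteoglycan, fell within background from 86.9, 111 and 135 to 63.8, 49.5 and 71.9 (adjusted p = 0.0388, 0.169 without pair 2). The other stromal proteoglycans gave no call: Dcn was at 5196, 4498 and 4449 against 5108, 4713 and 5587, Lum at 3072, 1857 and 2410.0 against 2513, 1643 and 2631 and Bgn at 6589.9, 5943 and 5681 against 4999.5, 4934 and 5067 (adjusted p = 0.457, 0.562 and 0.0916). Bgn, whose groups did not overlap, passed without pair 3 and on a weaker probe set. Fmod was at 2936, 2293 and 1993 against 2535, 1961 and 4723, with fibroblast replicate 3 highest (adjusted p = 0.585). Kera, keratocan, was below the filter at 13.1, 4.24 and 9.54 against 48.3, 1.504 and 84.3.

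Matrix proteases fell in part, and a protease inhibitor rose. Of 28 proteases and inhibitors tested 5 fell (17.9%) and 2 rose, beside 3.83% and 1.88% of all genes. The falls included 3 matrix metalloproteinases that lie in 1 gene cluster on chromosome 9, Mmp3, Mmp12 and Mmp13. Their 250 bases before the start site are printed here because the genes fell together and each window holds a match to the letters TGAGTCA, the binding motif of AP-1 (FOS and JUN dimers), or to its reverse complement TGACTCA, in capitals. The sequences are those of RefSeq on GRCm38.p6, read 5′ to 3′ on the strand of the gene, which is the plus strand for all 3. Mmp3 lies at chr9:7445572-7445821, Mmp12 (the second of 2 start sites listed) at chr9:7347124-7347373 and Mmp13 at chr9:7272264-7272513.
Mmp3: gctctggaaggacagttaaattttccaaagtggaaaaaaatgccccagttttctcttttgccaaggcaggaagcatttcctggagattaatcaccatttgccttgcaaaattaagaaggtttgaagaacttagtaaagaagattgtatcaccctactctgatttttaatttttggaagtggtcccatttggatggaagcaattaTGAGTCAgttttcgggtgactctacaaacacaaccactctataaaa
Mmp12: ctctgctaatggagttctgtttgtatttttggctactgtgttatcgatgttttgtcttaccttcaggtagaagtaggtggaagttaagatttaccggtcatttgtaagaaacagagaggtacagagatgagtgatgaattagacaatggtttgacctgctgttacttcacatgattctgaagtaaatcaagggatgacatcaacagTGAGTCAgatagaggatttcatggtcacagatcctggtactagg
Mmp13: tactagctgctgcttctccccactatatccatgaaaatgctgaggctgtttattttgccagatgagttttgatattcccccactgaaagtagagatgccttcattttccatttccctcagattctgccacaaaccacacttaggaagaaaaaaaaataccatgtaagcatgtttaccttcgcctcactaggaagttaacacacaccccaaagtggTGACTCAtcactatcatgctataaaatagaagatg
The first base of the match lies at -46, -44 and -35 from the start site in Mmp3, Mmp12 and Mmp13. The other listed start of Mmp12 had no match. The motif was chosen after the values were seen, and a match is a description of these letters only. On both strands it occurred in the 250 bases of 4.46% of 32851 promoter entries. Among genes with a promoter entry it occurred in 4 of 90 that rose (4.44%) and 10 of 213 that fell (4.69%). Of 18 Mmp genes with an entry 7 held a match, among them Mmp10 and Mmp7, which were tested and not called.

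Mmp3, stromelysin 1, which digests proteoglycans and activates other proteases, was at 2044, 1409 and 827 in the fibroblast and at 435, 173 and 80.2 in the myofibroblast culture. Replicate 3 was lowest and replicate 1 highest in both, and no myofibroblast array reached a fibroblast array. The difference was -2.75 ± 0.18 (SE, n = 3 pairs; adjusted p = 0.000354). Mmp12, macrophage elastase, fell from 811, 230.2 and 774 to 108, 144 and 122.8, at least 3.87-fold (adjusted p = 0.0254), and its second probe set fell too. Mmp13, the main interstitial collagenase of the mouse, fell from 346, 234 and 162 to 167, 41.5 and 12.8 in groups that overlap by 1 array (adjusted p = 0.00979). Plau, the urokinase that activates plasminogen, went from 200.1, 752 and 340.1 to 115, 212 and 77.6, also with overlap (-1.47 ± 0.22, adjusted p = 0.0115), and the cysteine protease gene Ctss from 248, 50.2 and 203 to 49.3, 16.4 and 73.4 (adjusted p = 0.00716). Timp3, an inhibitor of metalloproteinases that binds to matrix, rose from 765, 564 and 205 to 1475, 1202 and 1072 with no overlap (1.43 ± 0.24, adjusted p = 0.0188), and fibroblast replicate 3 was lowest. The other rise was Adam12, a membrane metalloproteinase (adjusted p = 0.0265). Timp1 was among the strongest signals of both cultures at 6086, 5237 and 4671 against 6321, 5734 and 5113 and did not pass (adjusted p = 0.428). Mmp2 was within background in both (adjusted p = 0.911). Mmp12 and Ctss are also macrophage genes, and macrophage markers are given with the chemokines. Leaving out pair 1, 2 or 3 gave 5, 3 and 7 falls and 1, 0 and 4 rises. Of the genes named here, Mmp12 and Adam12 (adjusted p from 0.0621 to 0.0993) did not pass without pair 1, nor did Mmp13, Plau, Timp3 and Adam12 (adjusted p from 0.0506 to 0.124) without pair 2.

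Many genes of inflammation fell in the myofibroblast culture. Of 28 chemokines and cytokines tested 5 fell (17.9%) and 2 rose, and of 18 acute phase, complement and host defence genes 8 fell (44.4%) and 0 rose, beside 3.83% and 1.88% of all genes. Cxcl5, which attracts neutrophils, was at 1774, 946 and 432 in the fibroblast culture and within background with TGF-beta1 at 67.6, 120.1 and 17.9, at least 6.82-fold lower (adjusted p = 0.000516). Ccl2, the monocyte attractant MCP-1, fell from 842, 292 and 705 to 116, 48.1 and 128, at least 4.23-fold (adjusted p = 0.000159). The highest myofibroblast array stayed below the lowest fibroblast array in both. Among further attractants of leukocytes Ccl7 fell from 231, 85.8 and 271 to 19.8, 39.7 and 34.5 (adjusted p = 0.015) and Ccl9 from 233, 95.5 and 274 to 32.1, 12.7 and 52.1 (adjusted p = 0.000333), and Cxcl1 was the fifth fall (adjusted p = 0.0348), with a second probe set that fell too. Ccl6, outside the list but among the largest falls, went from 735, 174 and 402 to 46.4, 41.8 and 65.1 (adjusted p = 0.00448). Il11, a cytokine of the interleukin-6 family that TGF-beta is known to raise in fibroblasts, rose from 62.4, 107 and 49.7 to 157, 303 and 130.3 (adjusted p = 0.00155), and Ccl17 from 51.4, 62.7 and 57.3 to 119.7, 87.2 and 171 (adjusted p = 0.0348). Il6 was within background in both cultures (adjusted p = 0.389). The shared receptor chain Il6st, gp130, fell from 1186, 1114 and 1755 to 623, 457 and 435 (-1.38 ± 0.19, adjusted p = 0.0079). Chemokines and cytokines gave 1, 2 and 4 rises and 4, 4 and 6 falls without pair 1, 2 and 3. Without pair 1 the threshold was not reached by Ccl17 and Cxcl1 (adjusted p from 0.109 to 0.144), and without pair 2 not by Cxcl1 (adjusted p = 0.146).

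Among the acute phase genes the largest fall was that of Ptx3, a pattern recognition protein that fibroblasts secrete, from 1063, 1040.0 and 689.8 to 122, 95.9 and 49.99. The fall was at least 6.94-fold (adjusted p = 5.74e-05) and it passed without the pairing. Serping1, the C1 inhibitor of complement, fell from 2158, 1364 and 2458 to 401, 256 and 301 (-2.56 ± 0.14, SE, n = 3 pairs; adjusted p = 0.000195). Saa3, an acute phase serum amyloid, fell from 1484, 1733 and 1277 to 308, 533 and 193 (-2.17 ± 0.17, adjusted p = 0.000962), and was highest in keratocyte cultures at 5266, 5053 and 5297. Serpina3n, a serine protease inhibitor, went from 881, 1819 and 138 to 229, 582 and 1, with overlap between groups and a fall in each pair (adjusted p = 0.00485). C1ra, a complement protease, fell from 951, 251 and 1179.6 to 277, 111 and 236 (adjusted p = 0.00485) and Cp, ceruloplasmin, from 167, 108 and 84.8 to 41.2, 38.0 and 19.3 (adjusted p = 0.0024). The remaining falls were Lcn2 and Lbp (adjusted p = 0.0253 and 0.00993), and a second probe set of Lcn2 did not pass. Without pair 1, 2 or 3 the list held 7, 7 and 8 falls. Interferon-stimulated genes gave 4 falls and 1 rise, that of Irgm1, among 23, beside 3.83% and 1.88% of all genes (3, 2 and 4 falls and 0, 0 and 1 rises without pair 1, 2 and 3), with B2m, the light chain of class I antigen presentation, falling from 2197, 1503 and 2699 to 1424, 901 and 1372 (-0.77 ± 0.10, adjusted p = 0.00732) and Ifi202b from 379, 167 and 223 to 113, 94.8 and 48.5 (adjusted p = 0.0112). With pair 1 left out, Lcn2 and Irgm1 (adjusted p from 0.0929 to 0.179) missed the threshold, as did Lbp, B2m and Irgm1 (adjusted p from 0.0597 to 0.0774) with pair 2 left out.

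Macrophage and leukocyte markers moved with these genes. Of 26 tested, 6 fell and 0 rose, beside 3.83% and 1.88% of all genes, 3, 6 and 9 fell without pair 1, 2 and 3, and the summed signal of the 30 on the array was 3706, 2932 and 4136 in the myofibroblast, 5019, 3259.5 and 5828 in the fibroblast and 7865, 6271 and 7639.7 in the keratocyte culture. Lyz2, lysozyme of myeloid cells, fell from 722, 130.1 and 599 to 121, 21.6 and 222 (adjusted p = 0.00221), Cd68 from 194, 107 and 227 to 62.3, 64.8 and 76.6 (adjusted p = 0.0126) and Cd53 from 90.6, 14.8 and 71.1 to 1.93, 1.65 and 10.3 (adjusted p = 0.0346). In fibroblast culture these markers were lowest on replicate 2. Ccl2, Ccl7, Ccl6, Ccl9, Mmp12 and Ctss had their lowest fibroblast signal on that array too. So had Serping1, C1ra and B2m, while Cxcl5, Ptx3, Saa3, Serpina3n and Cp had theirs on fibroblast replicate 3. A low on fibroblast replicate 2 was not particular to macrophage genes. Pdgfra, Apod, Aldh1a1, Ogn and Id2 were lowest there among the fibroblast arrays too, and its median signal of 107.1 was the lowest of its group. In bulk RNA fewer macrophages and less of their RNA per cell cannot be told apart, and the part of these markers in the falls of chemokine and acute phase genes was not tested. The threshold was missed without pair 1 by Cd53 (adjusted p = 0.212).

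Some markers of the keratocyte fell with TGF-beta1. Of 17 keratocyte markers and corneal crystallin enzymes 5 fell (29.4%) and 0 rose, beside 3.83% and 1.88% of all genes. Beside Aldh3a1 and Ogn, given above, these were Aldh1a1, another crystallin enzyme, from 785, 338 and 2333 to 372, 118 and 848 (-1.30 ± 0.12, adjusted p = 0.00155), and Clu, the extracellular chaperone clusterin, from 2382, 2909.8 and 2667 to 738, 819 and 252 (-2.27 ± 0.29, adjusted p = 0.0059). The Aldh1a1 groups overlapped, because replicate 3 was highest in both cultures, whereas every Clu signal of the fibroblast culture was above every myofibroblast signal. Tkt, transketolase, fell from 625, 477 and 488 to 373, 306 and 356 (-0.59 ± 0.11, adjusted p = 0.0265). Fibroblast replicate 3, the array with low contractile genes, was the highest of the 6 in Aldh3a1, Aldh1a1, Ogn, Adh1 and Cyp2f2. Leaving out pair 1, 2 or 3 gave 4, 4 and 6 falls, and without pair 3 Aldh3a1 had adjusted p = 8.97e-08. Of the genes named here, Tkt (adjusted p = 0.156) did not pass without pair 1, nor did Tkt (adjusted p = 0.142) without pair 2.

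Genes of cell division fell in part. Of 59 cell cycle and DNA replication genes 11 fell (18.6%) and 0 rose, beside 3.83% and 1.88% of all genes, and the median difference was -0.40. Stmn1, stathmin, a regulator of microtubules, fell from 672, 438 and 530.0 to 348, 212 and 185 (-1.12 ± 0.13, adjusted p = 0.00454). A second, weaker probe set of Stmn1, within background in both cultures, differed by 0.14 and did not pass. Top2a, topoisomerase II alpha of dividing cells, fell from 324, 312 and 152 to 239, 156 and 90.1 with overlapping groups (-0.67 ± 0.13, adjusted p = 0.0293). Ccnd1, cyclin D1, went from 774, 341 and 191 to 369, 210.4 and 130.4, lower in each pair (-0.73 ± 0.13, adjusted p = 0.023), but a second probe set differed by -0.34 and did not pass (adjusted p = 0.103). The chromatin protein gene Hmgb2 fell from 511, 462 and 183 to 272, 221 and 92.2 (-0.92 ± 0.11, adjusted p = 0.00409). In Ccnd1, Top2a and Hmgb2 replicate 3 was lowest in both cultures. The count of this list rests on single pairs: 7, 2 and 30 genes fell without pair 1, 2 and 3, and 7 fell after median centring. Without pair 1 the threshold was not reached by Ccnd1 (adjusted p = 0.116), and without pair 2 not by Top2a and Ccnd1 (adjusted p from 0.0979 to 0.147).

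Cell cycle inhibitors went both ways. Cdkn2b rose, as given above, and was the 1 rise among 17 cyclin-dependent kinase inhibitors and p53 targets, of which 3 fell, beside 1.88% and 3.83% of all genes. Cdkn1c, the imprinted inhibitor p57, fell from 111, 68.7 and 121 to 19.1, 8.94 and 12.1, with both cultures within background (adjusted p = 0.00144). Gas1, a growth arrest gene, fell from 499.5, 276 and 623 to 166, 128 and 82.8, at least 3.11-fold (adjusted p = 0.0145), and Cdkn2c, the inhibitor p18, from 214, 266 and 186 to 155, 159 and 93.4 (-0.67, adjusted p = 0.0254). Imprinted growth genes gave 3 falls and 0 rises among 18, beside the same shares of all genes: Mest and Cdkn1c, given above, and Igf2, insulin-like growth factor 2, from 534, 461 and 568 to 152, 155 and 76.0, at least 3.56-fold (adjusted p = 0.0036). Each of the 3 was higher on every fibroblast array than on any myofibroblast array, and the count stayed at 3 without each pair. Of 17 genes of insulin-like growth factor signalling 5 fell, among them Igf2 and Irs2 (adjusted p = 0.0365), and 1 rose, beside 3.83% and 1.88% of all genes. The receptor gene Igf1r fell from 647, 479 and 732 to 438, 308 and 419 (-0.65 ± 0.11, adjusted p = 0.0173), and the binding protein genes Igfbp4 and Igfbp6 from 792, 1211 and 464 to 549.8, 686 and 110.1 and from 220.4, 273 and 437 to 154, 135 and 226 (adjusted p = 0.0481 and 0.0172). Igfbp7 rose within background, from 20.2, 44.6 and 32.0 to 70.5, 80.2 and 59.5 (adjusted p = 0.0378). Igfbp3, often named as a TGF-beta target, was lower in each pair at 97.1, 138 and 15.7 against 181, 193 and 18.3 and did not pass (adjusted p = 0.146), though it passed without pair 3 and on another probe set. Without pair 1, 2 or 3 the system held 3, 1 and 6 falls. With pair 1 left out, Igf1r, Igfbp7 and Irs2 (adjusted p from 0.066 to 0.187) missed the threshold, as did Cdkn2c, Igf1r, Igfbp4, Igfbp6, Igfbp7 and Irs2 (adjusted p from 0.0858 to 0.117) with pair 2 left out.

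Of 39 other growth factors and receptors 3 rose and 6 fell, beside 1.88% and 3.83% of all genes. Leaving out pair 1, 2 or 3 gave 2, 2 and 3 rises and 7, 5 and 9 falls in this group. Pdgfra, the alpha receptor for platelet-derived growth factor and a marker of mesenchymal cells, fell from 1642, 677 and 1879.7 to 459, 248 and 378 with no overlap (-1.82 ± 0.16, SE, n = 3 pairs; adjusted p = 0.00144). A second probe set of Pdgfra, within background, differed by 0.0019 and did not pass. Fgf7, keratinocyte growth factor, by which stromal cells act on the epithelium, fell from 141, 129 and 151 to 28.6, 36.6 and 25.1 (adjusted p = 0.00128), and Nrp1, neuropilin 1, a co-receptor for VEGF and semaphorins, from 686, 789 and 659.6 to 362, 366 and 299 (-1.02 ± 0.11, adjusted p = 0.0028). Both groups were tight in Fgf7 and Nrp1. Efnb2, ephrin B2, fell from 260.3, 236 and 339 to 129.5, 121 and 149 (-0.97 ± 0.11, adjusted p = 0.00383), and the last falls were Fgfr2 and Vegfb (adjusted p = 0.0059 and 0.0216). Hbegf, a ligand of the EGF receptor, rose from 342, 243 and 135.9 to 685, 458 and 502 (1.20 ± 0.18, adjusted p = 0.0112) and Vegfa, which drives vessel growth, from 159, 122 and 107 to 348, 246 and 198 (adjusted p = 0.00448), and the third rise was Fgf1 (adjusted p = 0.0293). Hgf, hepatocyte growth factor, was below the filter at 14.8, 2.31 and 14.1 against 11.6, 13.6 and 12.8. Among 28 Wnt genes 2 rose, Wnt11 and Ccn4, and 1 fell, beside 1.88% and 3.83% of all genes (2, 2 and 3 rises and 0, 0 and 3 falls without pair 1, 2 and 3). Wnt11 was at 478, 80.1 and 487 against 87.6, 11.7 and 133, higher in each pair but with groups that overlap through replicate 2 (adjusted p = 0.000481). The secreted Wnt modulator Sfrp2 fell from 156, 162 and 176 to 103, 81.4 and 108 (adjusted p = 0.0205). The threshold was missed without pair 1 by Fgf1 and Sfrp2 (adjusted p from 0.0564 to 0.114), and without pair 2 by Vegfb, Fgf1 and Sfrp2 (adjusted p from 0.0979 to 0.13).

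Among genes of prostaglandin synthesis 2 of 10 rose and 2 fell, beside 1.88% and 3.83% of all genes, with 1, 1 and 2 rises and 2, 1 and 3 falls without pair 1, 2 and 3. Ptgs2, the inducible cyclooxygenase COX-2, rose from 944, 450.4 and 490.0 to 1718, 997 and 1269.6 with no overlap (1.11 ± 0.12, adjusted p = 0.0036), and Pla2g4a, which frees its substrate arachidonic acid, from 778, 605 and 855 to 1078, 926 and 1275 (0.54 ± 0.10, adjusted p = 0.0232). The 2 falls were in enzymes that act after COX-2, namely Ptges, prostaglandin E synthase, from 208, 154 and 247 to 124, 90.3 and 100.05 (adjusted p = 0.0145), and Ptgis, prostacyclin synthase, from 295, 267 and 252 to 187, 160.3 and 65.2 (-1.01 ± 0.21, adjusted p = 0.0388). Penk, the precursor of enkephalin peptides, fell from 1839, 1315 and 1343 to 493, 423 and 418 (-1.70 ± 0.11, adjusted p = 0.000333), and its other probe set fell further. Penk was as low in keratocyte culture, at 477, 523 and 560.0, so that the fibroblast culture was the high one. Adm differs in this: its keratocyte signals of 700.4, 814 and 811 were as high as those of the fibroblasts. Of 22 lipid handling and adipogenic genes 7 fell (31.8%) and 1 rose, beside 3.83% and 1.88% of all genes, with Apod as the largest, and 7, 5 and 8 fell without pair 1, 2 and 3. Apoe, apolipoprotein E, went from 492, 465 and 29.2 to 120.3, 190.0 and 6.38, low on replicate 3 in both cultures (adjusted p = 0.00556), and Abca1, the cholesterol exporter, from 255, 145 and 400.5 to 129, 83.2 and 153 (adjusted p = 0.00974). Cebpd, a transcription factor of the acute phase and of early adipogenesis, fell from 2002, 1215 and 1571 to 1454, 719.9 and 602 (-0.85 ± 0.17, adjusted p = 0.0313). Pltp and Lpl, which act on lipoproteins, fell too (adjusted p = 0.00951 and 0.0442), and the 1 rise was Plin2, a coat protein of lipid droplets (adjusted p = 0.0216). Apoe, Pltp, Lpl and Abca1 are expressed by macrophages as well, and the part of macrophage markers in these falls was not tested. Of the genes named here, Pla2g4a (adjusted p = 0.0915) did not pass without pair 1, nor did Pla2g4a, Ptgis, Cebpd, Lpl and Plin2 (adjusted p from 0.0817 to 0.163) without pair 2.

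Of 33 transcription factors of mesenchymal and muscle cells 8 fell and 1, Gata4, rose, beside 3.83% and 1.88% of all genes. Twist1, a factor of embryonic mesenchyme, fell from 648, 359 and 676 to 320.0, 168 and 206 with no overlap (-1.22 ± 0.15, adjusted p = 0.0052). Hmga2, a chromatin protein of growing cells that TGF-beta raises in epithelial cells, fell from 346, 256 and 94.2 to 127, 99.7 and 64.8 (adjusted p = 0.0223), Prrx2 from 1202, 689 and 963 to 812, 376 and 581 (-0.71 ± 0.11, adjusted p = 0.0121) and Nfib from 484, 242 and 463 to 353, 134 and 226 (-0.73 ± 0.13, adjusted p = 0.0229). Without pair 1, 2 and 3 the list held 3, 1 and 9 falls. Among 30 immediate early genes 2 rose and 3 fell, beside 1.88% and 3.83% of all genes (0, 0 and 4 rises and 1, 1 and 4 falls without pair 1, 2 and 3). Ier3 rose from 1342, 1162 and 1459 to 2472, 1792 and 2056 (0.66 ± 0.11, adjusted p = 0.0146) and Myc from 178, 100.3 and 70.7 to 246, 145 and 140.4 (adjusted p = 0.0404), while the phosphatase gene Dusp1 fell from 620.0, 477 and 657 to 299, 352 and 347 (-0.78 ± 0.14, adjusted p = 0.0225), as did Zfp36l1 and Klf9 (adjusted p = 0.012 and 0.0134). Without pair 1 the threshold was not reached by Gata4, Hmga2, Ier3, Myc, Dusp1 and Klf9 (adjusted p from 0.0681 to 0.121), and without pair 2 not by Gata4, Hmga2, Prrx2, Nfib, Ier3, Myc, Zfp36l1 and Klf9 (adjusted p from 0.0547 to 0.149).

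Several groups of genes gave no call. None of 18 cytosolic ribosomal protein genes, 25 genes of endoplasmic reticulum folding and secretion, 16 glycolytic enzymes, 15 Notch and hedgehog genes and 12 cholesterol genes passed limma's test, beside 5.71% of all genes called in either direction. Of these 86 genes 22 had an unadjusted p below 0.05, as had 2162 of all 9500 probe sets, and 7 were called without pair 3. Of the 16 glycolytic enzymes 10 had an unadjusted p below 0.05, and their median difference was -0.26. Most markers of corneal epithelium were low: of 32 on the array 9 passed the filter, and 6 to 9 of the 32 stood at the lowest value of 1 on each of the 6 arrays. A larger share of the markers of other cell types passed the filter. These were 13 of 18 for vascular endothelium, 11 of 14 for Schwann cells and nerve and 6 of 9 for pericytes. The others were 10 of 18 for lens and retina, 5 of 10 for pigment cells and 7 of 7 for corneal endothelium. The filter lies below background, so passing it does not show expression. Both group means were within background in 7 of the 13 vascular endothelium, 4 of the 11 Schwann and 1 of the 6 pericyte markers. They were so in 6 of the 10 lens and retina, 3 of the 5 pigment cell and 3 of the 7 corneal endothelium markers. Of the 9 epithelium markers 3 were within background in both cultures, and 2 rose and 1 fell, beside 1.88% and 3.83% of all genes. Of the 7 corneal endothelium markers 2 fell and 0 rose, beside 3.83% and 1.88% of all genes. Their summed signal ran from 4379.7 to 7708 in the myofibroblast and from 5770.1 to 10753 in the fibroblast culture. Their part in the results was not tested. Vim, vimentin of mesenchymal cells, was at 194, 236 and 244 against 186, 258 and 193 (adjusted p = 0.726).

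**Figure D5:**
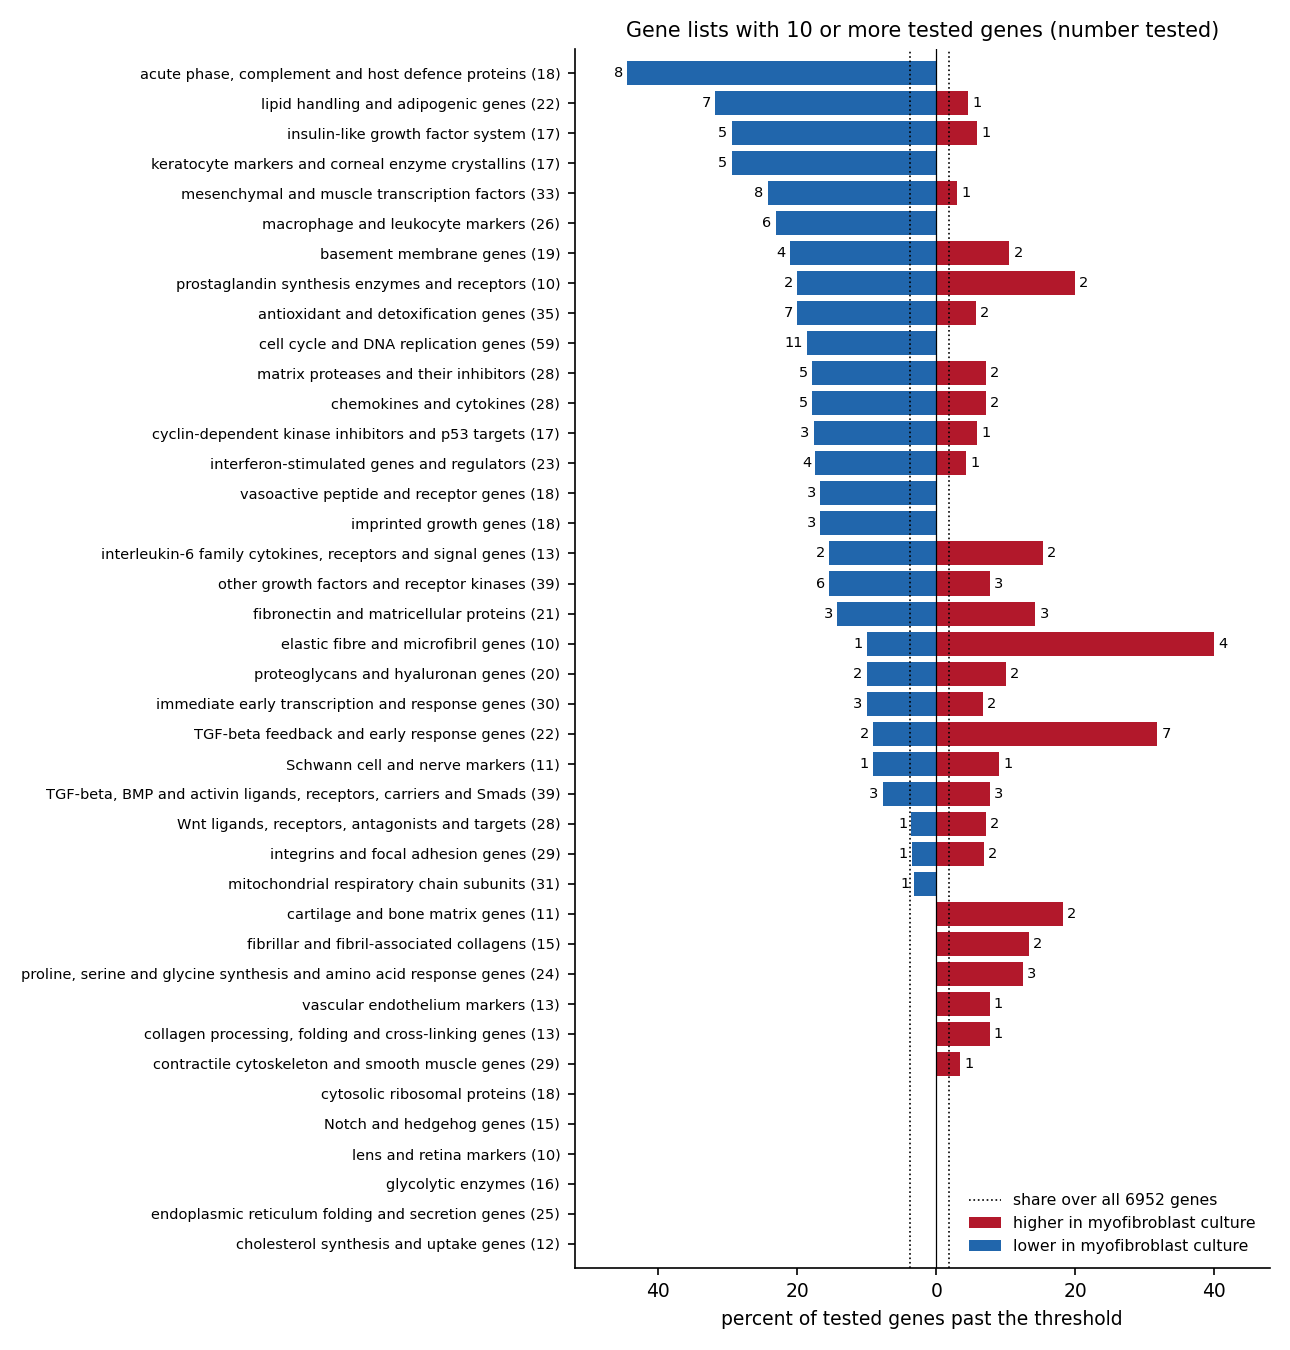
Percent of the tested genes of each list with 10 or more tested genes that passed adjusted p below 0.05 higher (red, right) or lower (blue, left) in the myofibroblast culture, with the number of genes beside each bar and the number tested in brackets; dotted lines mark the shares over all 6952 genes, 1.88% higher and 3.83% lower. Smaller lists, such as the Id genes, are not drawn. Among the lists drawn, acute phase genes have the longest bar to the left (8 of 18) and elastic fibre and TGF-beta response genes the longest to the right (4 of 10 and 7 of 22).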

How the data were processed

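RNA was measured on 6 Affymetrix MG_U74Av2 arrays, 3 per group, from 5 µg of total RNA each per the labels' protocols. The labels do not say whether the 3 arrays of a group came from separate cultures. The authors deposited intensity values, 1 signal per probe set, made with Microarray Suite 5.0 and scaled to a target of 150, per the labels. No source used here says how signals below 1 were set. Scaling of each array to a common level hides a shift that all genes share.

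Of 12488 probe sets 66 controls were removed, and 9500 of the remaining 12422 had a mean signal of 50 or more in either group. The fit used limma 3.58.1 (R 4.3.3) on log2(signal + 16), with the replicate number as a block, moderated variances that follow the mean signal, two-sided tests and Benjamini-Hochberg adjustment over 9500 probe sets. The fit was run on simulated data whose replicate effects came from the paired fit, with independent noise. Such data cannot test the pairing or the effect of an outlying array. The deposited annotation gave 1 symbol for 10833 probe sets and several for 396, and the probe set of highest mean stood for a gene. Same-numbered arrays deviated together in all 3 pairs (0.637, 0.702 and 0.546), and the labels do not say what the number marks.

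Named were the 12 largest rises and falls with the same sign in 3 pairs and the higher group mean above 131.7, up to 6 called members of each of 45 lists with 2 or more, and 57 panel genes, some of which were not analysed here. Other genes in the text were chosen after their values were seen. The members, lists and panel were chosen with earlier results of these data known, so no list is independent evidence. Alternatives were another added constant, filter, normalization, variance model or threshold, no block, all 14 arrays in 1 fit, other probe sets and leaving out each pair. Promoter sequences are those of RefSeq on GRCm38.p6.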

Additional observations from a re-analysis of the deposited data

How the results depend on the processing

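The replicate block decided the number of calls. Without the pairing 14 probe sets passed in place of 519, 5 higher and 9 lower, and with all 14 arrays in 1 fit without the block 110 passed, 31 higher and 79 lower. Of 146 called genes named by rule, 10 and 50 stayed called; neither fit can turn a sign, since the difference of means is the same in both. Without a filter 152 probe sets passed (42 higher, 110 lower); more probe sets were tested in that fit. Leaving out 1 pair gave 225 to 1018 calls, with 68 to 343 higher and 157 to 675 lower, the fewest without pair 2 and the most without pair 3. Of 397 called genes 125 stayed called whichever pair was left out. At adjusted p below 0.01 there were 150 calls (45 and 105), and with a change of 2-fold or more 186 (56 and 130). The other settings, which were the added constants, the filter at 100, both normalizations and both variance models, gave 422 to 566 calls. Of the 146 called genes, 139 and 140 stayed called with the added constants 1 and 64. After quantile normalization and median centring 130 and 129 did. Without the variance trend 125 did, and with robust variances 131. With the filter at 100, 132 of 141 stayed called. Robust variances lost Plpp3, Cyp2f2, Clu, Ccl7, Ccn2 and Timp3, among others (limma adjusted p from 0.0595 to 0.121).

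Of the called genes named, Aqp1 (0.25), Pdgfra (0.0019) and Stmn1 (0.14) had the opposite sign on another probe set, which for Pdgfra and Stmn1 lay within background in both cultures. Genes that were not called changed sign as follows. Quantile normalization and median centring gave 0.011 and 0.026 for Col1a1, 0.0028 and 0.031 for Mmp2, and 0.0029 and 0.012 for Tnc. With 1 pair left out Actn1 ran from -0.0015 to 0.28, Cnn1 from -0.41 to 0.062, Col1a1 from -0.11 to 0.058, Fmod from -0.51 to 0.22, Il6 from -0.025 to 0.79, Myl9 from -0.099 to 0.55 and Tnc from -0.16 to 0.11. Other probe sets gave -0.035 for Actn1, -0.059 for Col1a2 and 0.088 for Tnc. The cause was not tested. With 3 arrays per group and no detection calls, changes among signals below 131.7 are the least certain.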

Other observations

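Of 35 antioxidant and detoxification genes tested 7 fell and 2 rose, beside 3.83% and 1.88% of all genes. Mgst1, a membrane glutathione transferase, fell from 533, 298 and 730.4 to 261, 157 and 278 (-1.06 ± 0.13, SE, n = 3 pairs; adjusted p = 0.00458), and Ephx1, the microsomal epoxide hydrolase, from 342, 285 and 998 to 179, 164 and 293 (-1.11 ± 0.19, adjusted p = 0.0183). Gsta4, an alpha class transferase, fell from 265, 244 and 21.4 to 12.4, 38.1 and 1 (adjusted p = 0.0144). Gsto1, an omega class transferase, went the other way, from 706, 365 and 256 to 1115, 782 and 849.8 (1.13 ± 0.18, adjusted p = 0.0154), and the other rise was Fth1, ferritin heavy chain (adjusted p = 0.0489), of which a weaker probe set fell by 0.63 (adjusted p = 0.0134). With pair 1 left out, Fth1 (adjusted p = 0.152) missed the threshold, as did Gsta4, Gsto1 and Fth1 (adjusted p from 0.0747 to 0.272) with pair 2 left out. The list held 6, 4 and 8 falls and 1, 0 and 4 rises without pair 1, 2 and 3.

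Of 24 genes of proline, serine and glycine synthesis and the amino acid response 3 rose and 0 fell, beside 1.88% and 3.83% of all genes. Ddit4, an inhibitor of mTORC1, rose from 186, 222 and 262 to 452, 568 and 381 (1.01 ± 0.16, adjusted p = 0.0157), the leucine importer gene Slc7a5 from 434, 331 and 448 to 671, 602 and 547 (0.57 ± 0.13, adjusted p = 0.0491), and Aldh18a1, the entry enzyme of proline synthesis, from 101, 54.3 and 82.0 to 180.0, 80.5 and 133 (adjusted p = 0.0318). The list held 0, 0 and 11 rises without pair 1, 2 and 3. Ank, which exports pyrophosphate, rose from 502, 285 and 503 to 1294, 768 and 1357 (1.38 ± 0.10, adjusted p = 0.000529). The integrin subunit Itga5, which with beta 1 binds fibronectin, rose from 154, 96.8 and 88.5 to 252, 157 and 169.8 (adjusted p = 0.0134), and Cd151, a tetraspanin partner of integrins, fell from 904, 783 and 953 to 611, 537 and 698 (-0.51 ± 0.10, adjusted p = 0.0318; 0.226 on a weaker probe set). Aqp1, a water channel of keratocytes and corneal endothelium, fell from 2709.7, 1346 and 3789 to 705, 322 and 742 (-2.09 ± 0.11, adjusted p = 0.000195), while a weaker probe set differed by 0.25 the other way and did not pass. Ncam1 rose from 335, 319.9 and 99.0 to 793, 694 and 497 (1.48 ± 0.20, adjusted p = 0.00815), and its 2 weaker probe sets did not pass. The threshold was missed without pair 1 by Ddit4, Slc7a5, Aldh18a1, Itga5 and Cd151 (adjusted p from 0.062 to 0.19), and without pair 2 by Ddit4, Slc7a5, Aldh18a1, Itga5 and Cd151 (adjusted p from 0.0601 to 0.24).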
